A study of Mus musculus with 20 samples.

Results

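The genes described here are 10 members of the Wnt pathway, 4 frizzled receptors (Fzd1, Fzd2, Fzd4 and Fzd7) and 6 secreted proteins that modulate Wnt signals (Sfrp1, Sfrp2, Sfrp4, Frzb, Wif1 and Dkk3). They were chosen by name, with earlier results of these data known, so their counts of calls are descriptions. Every probe set annotated with exactly 1 symbol, that of a member, was taken, which gave 22 of the 45101 probe sets. A gene was represented by its brightest probe set, and all 10 genes were among the 11076 genes bright enough to be tested, out of 18193 genes with a probe set of their own. The other probe sets are given beside it, and 21 of the 22 passed the same brightness filter.

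Messenger RNA of whole mouse aorta was measured on Affymetrix whole-genome mouse arrays, 20 in all, each with RNA pooled from 8 aortas. Adult C57BL/6J mice ate food with rosiglitazone, a drug that binds and activates the nuclear receptor PPARγ, or standard chow. The treated groups received 3 mg/kg daily for 2 days (3 arrays), 3 mg/kg daily for 14 days (3 arrays), 10 mg/kg daily for 2 days (3 arrays) and 10 mg/kg daily for 14 days (2 arrays), and 1 chow group of 3 arrays served all 4 of them. In a second experiment, adult mice with a targeted P465L mutation of PPARγ, described by the submitters as a dominant negative form (3 arrays), were set against wild-type littermates (3 arrays), and both of these groups ate standard chow with no drug. As a knock-in the mutation is carried by every cell of the animal, and neither the second allele, the strain of the line, the age in weeks nor the sex is given in the sources used here. A replicate is a pool, and p-values below measure the spread between pools, not between mice.

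Wnt proteins are secreted signals that bind frizzled receptors, membrane proteins with a cysteine-rich domain outside the cell, together with the coreceptors Lrp5 and Lrp6. Binding stabilises β-catenin, which enters the nucleus and switches on genes with TCF and LEF factors. The secreted frizzled-related proteins carry a cysteine-rich domain like that of the receptors and bind Wnts outside the cell, Wif1 binds Wnts through a domain of its own, and the Dickkopf proteins act mainly at the coreceptors. In fat cell precursors, Wnt signals are known to hold back PPARγ and fat cell formation. In vessels, they take part in smooth muscle growth and in the barrier of the endothelium.

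The arrays shared a trimmed mean signal of 1500 by the authors' scaling, while their medians lay between 321.3 and 450.7. Replicates had a Pearson's r of 0.953 to 0.977 over all probe sets, and 0 pairs of arrays were identical. Of the smooth muscle markers, 12 of 12 were bright enough to be tested, with a summed signal of 537708 to 735425 over the 20 arrays. So were 12 of 12 endothelial and 12 of 12 macrophage markers, so passing this filter does not identify the tissue. Signals are MAS5 values on a linear scale, and fold changes are log2 differences of the signal plus 72, an offset that shrinks the changes of dim genes. Tests are limma with 1 mean per group fitted to all 20 arrays, two-sided, with Benjamini-Hochberg adjustment over the 11076 genes, and a gene is called at an adjusted p under 0.05. Levels of different genes are not set against each other, because probe sets differ in brightness. In whole tissue, fewer cells of a type and less RNA per cell cannot be told apart.

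The first comparison asked how the aorta's Wnt receptors and modulators responded to activated PPARγ. As the average of the 4 rosiglitazone groups against chow, Fzd2 and Sfrp4 fell, to 0.691 and 0.762 of the chow level. These were 2 of the 10 genes, called lower beside 0.199% of all tested genes, and 0 were called higher. Of the 10 fold changes 9 lay below 0, with a median of -0.16 on the log2 scale, against a median of -0.02 and a share of 55.0% below 0 over all tested genes. All rosiglitazone arrays lay below all chow arrays for 3 genes, Fzd2, Sfrp4 and Fzd7, beside 1.26% of tested genes. Wild-type littermates, which had no drug, were as low as the treated arrays for Fzd2 and Sfrp4, as shown further on, and the 11 adipocyte markers had a median log2 fold change of 0.49 with rosiglitazone, with 1 called higher. Their part in these results was not tested.

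Fzd2 is a receptor that can pass on both β-catenin-dependent and other Wnt signals. Its brightest probe set (1418532_at) read 8807, 7547 and 6718 after 3 mg/kg daily for 2 days, 8385, 8255 and 8409 after 14 days at that dose, 6448, 6780 and 7399 after 10 mg/kg daily for 2 days, and 6662 and 6193 after 14 days at that dose, against 10775, 9792 and 11208 in chow controls. The highest treated array, 8807, was thus below the lowest chow array, 9792. Fzd2 averaged 7418 ± 921 over the treated arrays (SD, n = 11) and 10592 ± 725 in chow controls (SD, n = 3). By limma the average of the 4 groups was lower, at -0.53 on the log2 scale (95% interval -0.72 to -0.34, SE 0.09, adjusted p = 0.0197). Without the first chow pool the log2 fold change was -0.52 (adjusted p = 0.0904) and without the third it was -0.49 (adjusted p = 0.133), so the call was lost at a similar size. In those fits 3 and 1 of all tested genes were called, against 48 with all arrays.

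**Figure D1:**
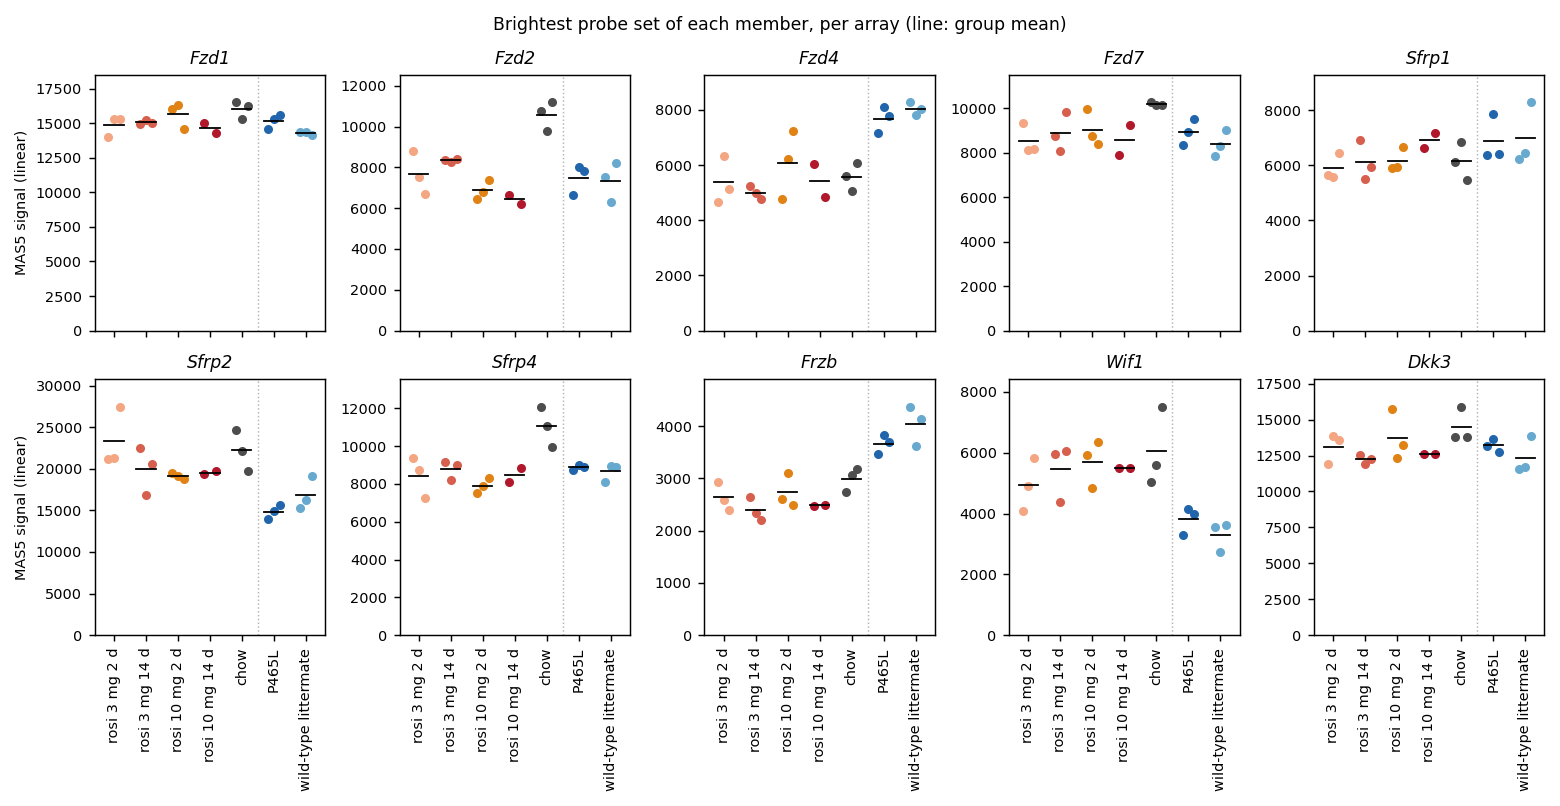
MAS5 signal (linear scale, from 0) of the brightest probe set of each of the 10 genes on each of the 20 arrays, with a line at each group's mean; rosi is rosiglitazone, with its daily dose per kg and its days, and the dotted line separates the rosiglitazone experiment from the P465L experiment. For Fzd2 all 11 rosiglitazone arrays lie between 6193 and 8807 and the chow arrays between 9792 and 11208, while the P465L and wild-type littermate arrays lie in the range of the treated ones.

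Sfrp4, a secreted frizzled-related protein known for its part in phosphate handling and bone, was also lower on every treated array. It read 9361, 8753 and 7235 after 3 mg/kg daily for 2 days, 9186, 8228 and 8986 after 14 days, 7519, 7884 and 8315 after 10 mg/kg daily for 2 days, and 8081 and 8872 after 14 days, against 12103, 11097 and 9970 in chow controls. The groups did not overlap, with 9361 as the highest treated array and 9970 as the lowest control. The average fold change was -0.39 on the log2 scale (SE 0.08, 95% interval -0.56 to -0.22, adjusted p = 0.0304 by limma). Leaving out any 1 of the 3 chow arrays, or 1 of 3 treated arrays (the second of 3 mg/kg daily for 14 days, the second of 10 mg/kg daily for 2 days or the first of 10 mg/kg daily for 14 days), ended the call, with adjusted p-values up to 0.23. So did median centring, a fit without the variance trend and a fit on the rosiglitazone experiment alone, with adjusted p-values up to 0.0923.

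Fzd7, a receptor close in sequence to Fzd1 and Fzd2, was the other gene whose arrays did not overlap. Its treated arrays ranged from 7873 through a median of 8734 to 9956, against 10278, 10160 and 10134 in chow controls. The SD of the 3 controls was 77, and the highest treated array, 9956, was below the lowest control, 10134. The fold change was -0.22 on the log2 scale (SE 0.08, unadjusted p = 0.0133) and did not pass adjustment by limma (adjusted p = 0.217).

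Among the remaining receptors, Fzd1, a relative of Fzd2, averaged 15102 ± 681 over the treated arrays (SD, n = 11) and 16029 ± 638 in chow controls (SD, n = 3). Fzd4, the receptor that also binds the vessel-forming ligand norrin, averaged 5473 ± 844 in treated arrays and 5585 ± 499 in controls. Neither difference exceeded the spread between arrays by the test, with log2 fold changes of -0.09 (95% interval -0.22 to 0.04, adjusted p = 0.554) and -0.04 (95% interval -0.27 to 0.18, adjusted p = 0.918).

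The remaining modulators did not pass the test either. Frzb, a frizzled-related protein first known from cartilage, averaged 2569 ± 259 in treated arrays (n = 11) and 2994 ± 224 in controls (n = 3), with a log2 fold change of -0.22 (unadjusted p = 0.0256, adjusted p = 0.277 by limma). Dkk3, a Dickkopf relative that differs from the others in binding Lrp6 weakly or not at all, had a log2 fold change of -0.17 (adjusted p = 0.373), Wif1 of -0.15 (adjusted p = 0.655) and Sfrp2 of -0.12 (adjusted p = 0.626). Sfrp1 was the only gene of the 10 with a value above 0, at 0.03 (95% interval -0.18 to 0.24, adjusted p = 0.941). It was at -0.06 when each array was centred on its median, a setting that also lowered the median of all tested genes.

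The 4 treated groups were also set against chow one at a time, each against the same 3 controls. At 10 mg/kg daily for 2 days, 2 of the 10 genes were called lower beside 0.37% of tested genes: Fzd2, at 0.651 of the chow level (log2 fold change -0.62, SE 0.11, adjusted p = 0.0235 by limma), and Sfrp4, at 0.718 (log2 fold change -0.48, SE 0.10, adjusted p = 0.0389 by limma). At 10 mg/kg daily for 14 days, with 2 arrays, 1 gene was called lower beside 0.153%: Fzd2, at 0.61 of the chow level (log2 fold change -0.71, SE 0.13, adjusted p = 0.0322 by limma). Sfrp4 in that group had a log2 fold change of -0.38 (adjusted p = 0.176). Leaving out 1 array ended the Sfrp4 call in 6 of 6 cases and the Fzd2 call in 4 of 6 cases at 2 days, with adjusted p-values up to 0.183 and 0.125, and in 5 of 5 cases at 14 days, with adjusted p-values from 0.0631 to 0.206. Averaging the probe sets of each gene also ended both Fzd2 calls (adjusted p up to 0.0861), and a fit without the variance trend ended all 3 (adjusted p up to 0.0743). At 2 days Fzd2 was called by probe set 1418533_s_at (-0.53, adjusted p = 0.0404 by limma) but not by 1418534_at (-0.19, adjusted p = 0.423). At 14 days it was called by neither (-0.45, adjusted p = 0.167, and -0.29, adjusted p = 0.352, by limma).

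At 3 mg/kg/day 0 of the 10 genes passed the test, and 0 of all tested genes. The share called was 0.0% after 2 days, where 977 genes had an unadjusted p under 0.05, and 0.0% after 14 days, where 916 did. Fzd2 was at -0.47 on the log2 scale after 2 days (SE 0.11, unadjusted p = 0.000582, adjusted p = 0.302 by limma) and at -0.34 after 14 days (SE 0.11, adjusted p = 0.473 by limma). Sfrp4 was at -0.39 (adjusted p = 0.302) and -0.32 (adjusted p = 0.429). The treated arrays lay wholly below the chow arrays for 3 of the 10 genes after 3 mg/kg daily for 2 days (Fzd2, Fzd7 and Sfrp4, beside 6.92% of tested genes), 6 after 14 days (these and Fzd1, Frzb and Dkk3, beside 7.49%), 4 after 10 mg/kg daily for 2 days (the first 3 and Sfrp2, beside 13.5%) and 7 after 14 days (all but Fzd4, Sfrp1 and Wif1, beside 20.3%). None of the 10 lay wholly above chow in any of these groups.

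Dose was compared directly, as 10 mg/kg/day against 3 mg/kg/day over both times. Fzd2 averaged a log2 difference of -0.26 (SE 0.09, 95% interval -0.44 to -0.09, unadjusted p = 0.00577), which did not pass adjustment by limma (adjusted p = 0.255), and 0 of the 10 genes were called beside 0.0% of all tested genes, of which 1405 had an unadjusted p under 0.05. The next largest value was -0.15, for Sfrp2 (adjusted p = 0.503). By the other probe sets of Fzd2 the dose difference was smaller, at -0.11 by 1418533_s_at (adjusted p = 0.637 by limma) and at -0.04 by 1418534_at (adjusted p = 0.885 by limma). For time, as 14 days against 2 days over both doses, the 10 values ran from -0.13 for Frzb to 0.11 for Sfrp1, and again 0 genes were called beside 0.0%, with 464 tested genes at an unadjusted p under 0.05. The 95% intervals by the brightest probe sets ran from -0.16 to 0.19 for Fzd2 and from -0.08 to 0.24 for Sfrp4. Average changes between the times within these ranges are not excluded.

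The second experiment asked what interference with PPARγ did to these genes. In P465L aortas against wild-type littermates, 0 of the 10 genes were called, beside 0.0181% of all tested genes (2 genes by limma), and 821 tested genes had an unadjusted p under 0.05. Fzd2 read 6650, 7996 and 7843 in P465L aortas, against 7520, 6319 and 8216 in wild-type littermates. Sfrp4 read 8724, 9030 and 8915 in P465L aortas, against 8090, 8975 and 8921 in wild-type littermates. The groups overlapped for both genes, and the log2 fold changes were 0.03 (95% interval -0.21 to 0.27, adjusted p = 0.959 by limma) and 0.04 (95% interval -0.17 to 0.25, adjusted p = 0.941 by limma).

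The largest values among the 10 in P465L aortas were 0.21 on the log2 scale for Wif1 (95% interval -0.14 to 0.56, adjusted p = 0.772 by limma), -0.18 for Sfrp2 (95% interval -0.43 to 0.07, adjusted p = 0.74 by limma) and -0.14 for Frzb (95% interval -0.38 to 0.10, adjusted p = 0.783 by limma). The median of the 10 was 0.03, against 0.01 over all tested genes, and 4 of the 10 lay below 0, against 48.9% of all tested genes. For 1 gene, Fzd1, the arrays did not overlap, with 14580, 15339 and 15587 in P465L aortas against 14363, 14335 and 14156 in wild-type littermates. This direction without overlap was met by 7.36% of tested genes, and the log2 fold change of Fzd1 was 0.09 (adjusted p = 0.801). Its dimmer probe set (1422985_at) lay on the other side of 0, at -0.33 (adjusted p = 0.698).

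The rosiglitazone effect was then set against the P465L effect by a contrast of the 2 fold changes. For Fzd2 the difference was -0.57 on the log2 scale (SE 0.15, unadjusted p = 0.000945) and for Sfrp4 it was -0.43 (SE 0.13, unadjusted p = 0.00364). Neither passed adjustment by limma (adjusted p = 0.184 and 0.239), and 0 of the 10 genes were called beside 0.108% of all tested genes. The 2 experiments are therefore not shown to differ for these genes.

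**Figure D2:**
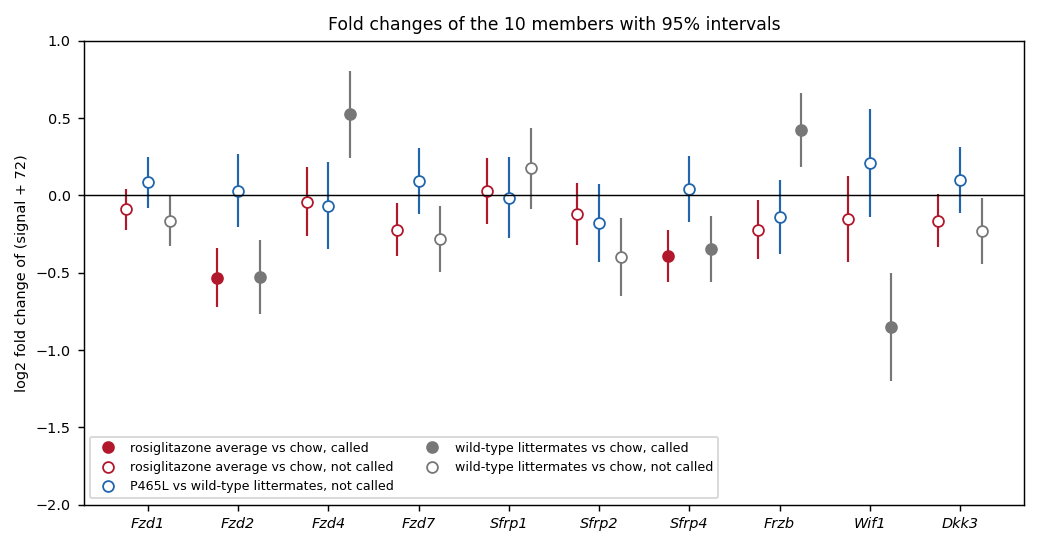
Log2 fold changes (points) with 95% intervals (lines) of the 10 genes for rosiglitazone over chow, P465L over its littermates, and littermates over chow; filled points passed an adjusted p under 0.05. Fzd2 and Sfrp4 lie near -0.53 and -0.39 with rosiglitazone and near 0 in P465L aortas, and wild-type littermates, which had no drug, lie at -0.53 and -0.35 against the same chow controls.

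The 2 untreated groups, wild-type littermates and chow controls, were compared to learn how far the experiments can be read together. Wild-type littermates differed from chow controls in 5 of the 10 genes. Lower were 3, Wif1, Fzd2 and Sfrp4, beside 3.89% of tested genes called lower, and higher were 2, Fzd4 and Frzb, beside 2.61% called higher. The littermates received no rosiglitazone, and the differences in Fzd2 and Sfrp4 were of about the size seen with the drug, in a comparison that uses the same chow arrays. Cohort, husbandry and genetic background cannot be told apart between these groups.

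Fzd2 in wild-type littermates (7520, 6319 and 8216) lay wholly below chow (10775, 9792 and 11208), at -0.53 on the log2 scale (SE 0.11, adjusted p = 0.0087 by limma). Without the second littermate array the adjusted p was 0.0647, and with median centring it was 0.0667. Sfrp4 likewise lay wholly below, with 8090, 8975 and 8921 in littermates and a value of -0.35 on the log2 scale (SE 0.10, adjusted p = 0.047 by limma), a call that ended in 5 of 6 cases when 1 array was left out, with adjusted p-values up to 0.172, and in 6 of 10 other settings, with adjusted p-values up to 0.243. The chow group had the highest mean of the 7 groups for 6 of the 10 genes, namely Fzd1, Fzd2, Fzd7, Sfrp4, Wif1 and Dkk3, and the highest of the 5 groups of the rosiglitazone experiment for 7, with Frzb added. Of these, only Fzd2, Sfrp4 and Fzd7 had a gap to the next group beyond the larger SD of the pair (0.34, 0.31 and 0.18 on the log2 scale). The share of all tested genes with chow highest was not worked out. Across the 7 groups, the log2 level of Fzd2 was 13.38 ± 0.10 in chow and between 12.67 and 13.04 in the other 6. Neighbours in rank among those 6 did not differ beyond the larger SD of each pair. The ends of that order were 12.67 ± 0.07 after 10 mg/kg daily for 14 days and 13.04 ± 0.01 after 3 mg/kg daily for 14 days. They were picked as the lowest and highest from these same values, so their gap is a description.

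Wif1, the Wnt inhibitory factor, showed the largest difference among the 10 genes in this comparison. It read 3547, 2725 and 3629 in wild-type littermates, against 5044, 5597 and 7522 in chow controls. The groups did not overlap, and Wif1 was at 0.554 of the chow level (log2 fold change -0.85, SE 0.17, adjusted p = 0.00458 by limma). The call held whichever 1 array was left out, with adjusted p-values from 0.00535 to 0.0383. P465L aortas read 3306, 4162 and 3982 and so lay with their littermates, while the 11 rosiglitazone arrays ranged from 4076 to 6352 around a median of 5510.

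Fzd4 was higher in wild-type littermates, with 8290, 7809 and 8042, and read 7155, 8117 and 7781 in P465L aortas, against 5618, 5071 and 6067 in chow controls. The log2 fold change of littermates against chow was 0.53 (SE 0.13, 1.44-fold, adjusted p = 0.0245 by limma), and 5 of 6 fits without 1 array lost the call (adjusted p up to 0.0968). Frzb read 4373, 3609 and 4141 in littermates and 3456, 3819 and 3694 in P465L aortas, against 2741, 3071 and 3169 in chow controls. Its log2 fold change was 0.42 (SE 0.12, 1.34-fold, adjusted p = 0.0324 by limma), also lost in 5 of 6 fits without 1 array and with median centring or the mean of its probe sets (adjusted p up to 0.123). For both genes every array of the P465L experiment lay above every chow array by the brightest probe set. By Fzd4's 1434756_at and Frzb's dimmer 1448424_at, P465L arrays overlapped those of chow. By 1448424_at, Frzb in littermates against chow was at 0.21 on the log2 scale (adjusted p = 0.565 by limma).

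Of the others, Sfrp2 read 15232, 16248 and 19078 in littermates, against 24630, 22182 and 19784 in chow controls (log2 fold change -0.40, SE 0.12, adjusted p = 0.0536 by limma), and passed the test in 3 alternative fits (adjusted p from 0.0233 to 0.0435). Fzd7 read 7833, 8276 and 9020 in littermates, with a log2 fold change of -0.28 (adjusted p = 0.0996). Littermate arrays lay wholly below chow for 6 of the 10 genes, the 3 called lower and Sfrp2, Fzd7 and Fzd1, beside 16% of tested genes, and wholly above for 2, Fzd4 and Frzb, beside 11.8%.

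Promoter sequence from RefSeq (GRCm38.p6), 250 bases before and 50 after the annotated start of the gene, was held for 6 of the 10 genes. The sequences of Wif1, Fzd4 and Frzb are shown because these genes separated the 2 untreated groups, and for Fzd2, Sfrp4, Sfrp1 and Dkk3 none is shown. Each is given 5′ to 3′ along the strand of the gene, with capitals for matches on either strand to the GC box GGGCGG or to the nuclear receptor half-site AGGTCA.
Wif1, chr10:121033754-121034053, plus strand: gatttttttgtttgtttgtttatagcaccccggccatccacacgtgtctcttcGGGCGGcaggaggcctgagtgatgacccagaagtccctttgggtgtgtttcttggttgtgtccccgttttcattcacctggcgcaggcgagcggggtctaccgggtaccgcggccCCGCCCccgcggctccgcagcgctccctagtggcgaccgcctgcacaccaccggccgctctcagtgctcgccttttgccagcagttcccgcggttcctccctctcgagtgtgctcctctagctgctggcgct
Fzd4, chr7:89404116-89404415, plus strand: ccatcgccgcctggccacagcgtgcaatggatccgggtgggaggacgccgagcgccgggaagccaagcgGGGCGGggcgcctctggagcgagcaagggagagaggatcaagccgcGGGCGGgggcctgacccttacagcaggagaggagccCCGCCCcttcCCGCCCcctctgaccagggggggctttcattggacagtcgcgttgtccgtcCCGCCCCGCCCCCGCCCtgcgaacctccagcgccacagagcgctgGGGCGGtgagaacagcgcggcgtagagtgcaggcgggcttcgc
Frzb, chr2:80447347-80447646, minus strand: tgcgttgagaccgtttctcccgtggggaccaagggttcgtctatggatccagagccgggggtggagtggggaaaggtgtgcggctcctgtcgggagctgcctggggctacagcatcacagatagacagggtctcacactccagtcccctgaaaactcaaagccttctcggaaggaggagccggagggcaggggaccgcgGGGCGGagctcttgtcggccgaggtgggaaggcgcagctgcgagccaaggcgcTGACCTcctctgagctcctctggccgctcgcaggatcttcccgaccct

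Motifs were searched on both strands of all 32544 promoters of the table, with overlapping matches counted separately. The GC box was found in 4 of the 6 promoters, those of Frzb, Fzd4, Fzd7 and Wif1, against 35.9% of all promoters, and Fzd4 held 8 matches, Fzd7 held 7, Wif1 held 2 and Frzb held 1. The half-site AGGTCA, which many nuclear receptors bind, was in the Frzb promoter alone of the 6 and in 16.2% of all. The direct repeat of 2 such half-sites with 1 base between them, bound by PPAR with its partner RXR, was in 0 of the 6 and in 0.0399% of all. The TCF and LEF core was in 0 of the 6 as CTTTGAT (3.73% of all) and in Fzd7 as CTTTGTT (5.85% of all). The letters TATAAA, searched without regard to their distance from the start, were in Fzd1 and Wif1 (13.6% of all). CCAAT was in Fzd4 and Fzd7 (37.4% of all). The GC content of the 6 promoters ran from 54.0% in Fzd1 to 72.7% in Fzd4, against a median of 53.0% over all.

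The probe sets of a gene were compared within each gene. For Fzd2, probe set 1418533_s_at, whose suffix marks probes shared by several transcripts, was also lower with rosiglitazone over all 4 groups (log2 fold change -0.43, SE 0.09, adjusted p = 0.0385 over 19370 probe sets by limma), and its 11 treated arrays did not overlap the chow arrays. The third, 1418534_at, had a log2 fold change of -0.22 (adjusted p = 0.258), and its treated arrays overlapped the controls. In littermates against chow all 3 probe sets were lower, at -0.53, -0.49 and -0.83, with adjusted p-values of 0.0106, 0.0175 and 0.000134 over those probe sets. The third probe set read 4807, 6433 and 6048 in P465L aortas, 5478, 5069 and 5480 in littermates and 8896, 9240 and 10527 in chow controls.

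**Figure D3:**
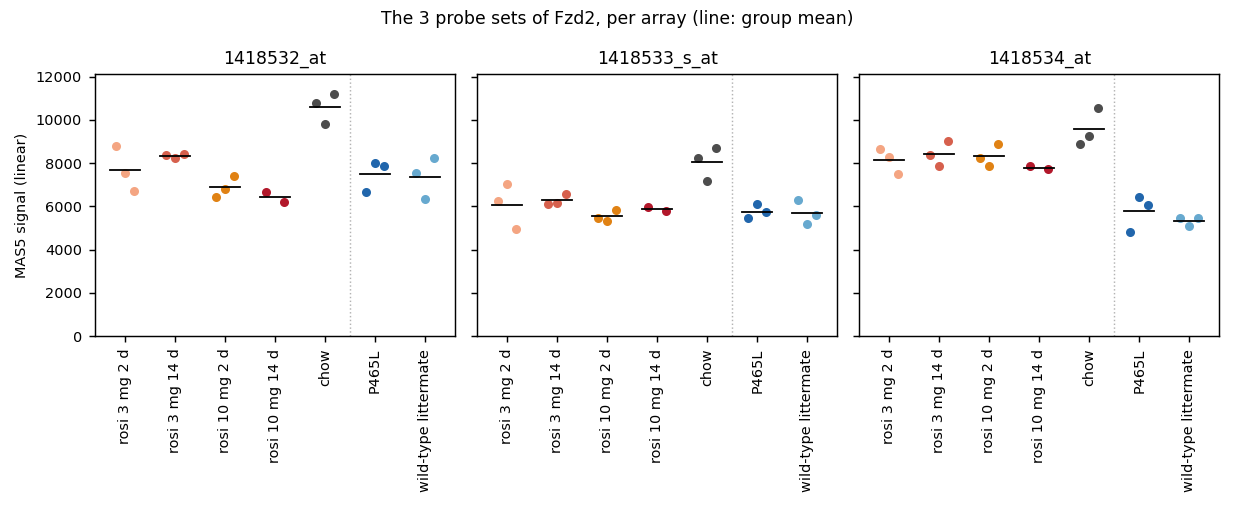
MAS5 signal (linear scale, from 0) of the 3 probe sets of Fzd2 on each of the 20 arrays, with a line at each group's mean and a dotted line between the experiments. In the first 2 probe sets the 11 rosiglitazone arrays lie below the chow arrays, and in the third they lie between 7489 and 9006, overlapping the chow arrays at 8896 to 10527, while the P465L and littermate arrays stay at 6433 or less.

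Fzd4 in littermates against chow was at 0.53 by the brightest probe set, at 0.88 by the dim 1449416_at (adjusted p = 0.0716), where P465L aortas read 746, 525 and 730, littermates 556, 856 and 594 and chow controls 284, 338 and 358, and at -0.07 by 1434756_at (adjusted p = 0.816), so the direction for Fzd4 depends on the probe set. With rosiglitazone, Fzd1, Fzd4, Frzb and Dkk3 each had a dimmer probe set further below 0 than the brightest. Sfrp1, at 0.03 by its brightest probe set, had dimmer probe sets below 0. None of these dimmer probe sets passed the test. The lowest were at -0.40 for Fzd1 (1422985_at, adjusted p = 0.142), -0.47 for Frzb (1448424_at, adjusted p = 0.162), -0.34 for Dkk3 (1417312_at, adjusted p = 0.142), -0.41 for Sfrp1 (1460187_at, adjusted p = 0.112) and -0.15 for Fzd4 (1434756_at, adjusted p = 0.551). The other 3 dimmer probe sets of Sfrp1 ran from -0.09 to 0.20. Fzd7's second probe set was too dim to be tested, with signals of 34 to 483 over the 20 arrays.

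The rest of the pathway was read from 5 lists of 107 genes, of which 69 were bright enough to be tested. With rosiglitazone 0 of the 69 were called as the average of the 4 groups, with a median log2 fold change of -0.06 and 44 of 69 below 0. Over all tested genes that median was -0.02, with 55.0% below 0. In P465L aortas 0 were called, with a median of 0.04 against 0.01 over all tested genes. In wild-type littermates against chow 7 were called lower and 0 higher, beside 3.89% and 2.61% of tested genes, with a median of -0.21 against -0.04 over all tested genes.

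By role, 10 of 22 Wnt ligands were tested and 0 were called in any comparison, and the smallest p-value with rosiglitazone and in P465L aortas was that of Wnt7a (0.55, adjusted p = 0.159, and -0.35, adjusted p = 0.72, on the log2 scale). Among 15 of 22 other receptors and coreceptors, Lgr6, a receptor for R-spondins, was lower in littermates than in chow (12109, 10609 and 11996 against 15670, 15214 and 15618; log2 fold change -0.42, adjusted p = 0.0171). With rosiglitazone Lgr6 was at -0.25 (adjusted p = 0.164), and in P465L aortas the smallest p-value was that of the receptor Fzd8 (-0.38, adjusted p = 0.615). Among 5 of 15 other secreted modulators, 0 were called, and the smallest p-values were those of Rspo1, which strengthens Wnt signals (-0.28 with rosiglitazone, adjusted p = 0.495), and Notum, an enzyme that inactivates Wnts (1.14 in P465L aortas, adjusted p = 0.647, with signals of 585, 394 and 303 in P465L aortas against 288, 196 and 38 in littermates).

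In the intracellular chain, 27 of 33 genes were tested. Dact1, which binds Dishevelled and modulates the signal, was called lower after 10 mg/kg daily for 14 days, the 1 such call among the 69 in that group, where it read 3216 and 3728 against 5965, 5575 and 4850 in chow controls (log2 fold change -0.64, SE 0.12, adjusted p = 0.0322 by limma). As the average of all 4 groups Dact1 was at -0.32 (adjusted p = 0.104). In littermates against chow, its relative Dact3 was lower (7603, 6269 and 6413 against 13091, 9923 and 10429; log2 fold change -0.71, adjusted p = 0.00088), as were the transcription factor Tcf7l1 (-0.49, adjusted p = 0.0205) and the corepressor Tle2 (-0.79, adjusted p = 0.0351). In P465L aortas the smallest p-value was that of Tle4, a relative of Tle2 (0.49, adjusted p = 0.505).

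Of 15 known Wnt target genes 12 were tested. None was called with rosiglitazone, and the smallest p-value was that of Ccn5, a matricellular protein, with treated arrays from 8927 to 12038 against 12158, 14912 and 16017 in chow controls (log2 fold change -0.47, SE 0.11, adjusted p = 0.0608 by limma). In littermates 3 of the 12 targets were called lower than in chow, beside 3.89% of tested genes, the cell cycle gene Ccnd1 (-0.41, adjusted p = 0.032), the helix-loop-helix inhibitor Id2 (-0.60, adjusted p = 0.0259) and the transcription factor Twist1 (-0.61, adjusted p = 0.0299). In P465L aortas the smallest p-value was that of the adhesion receptor Cd44 (0.32, adjusted p = 0.647).

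**Figure D4:**
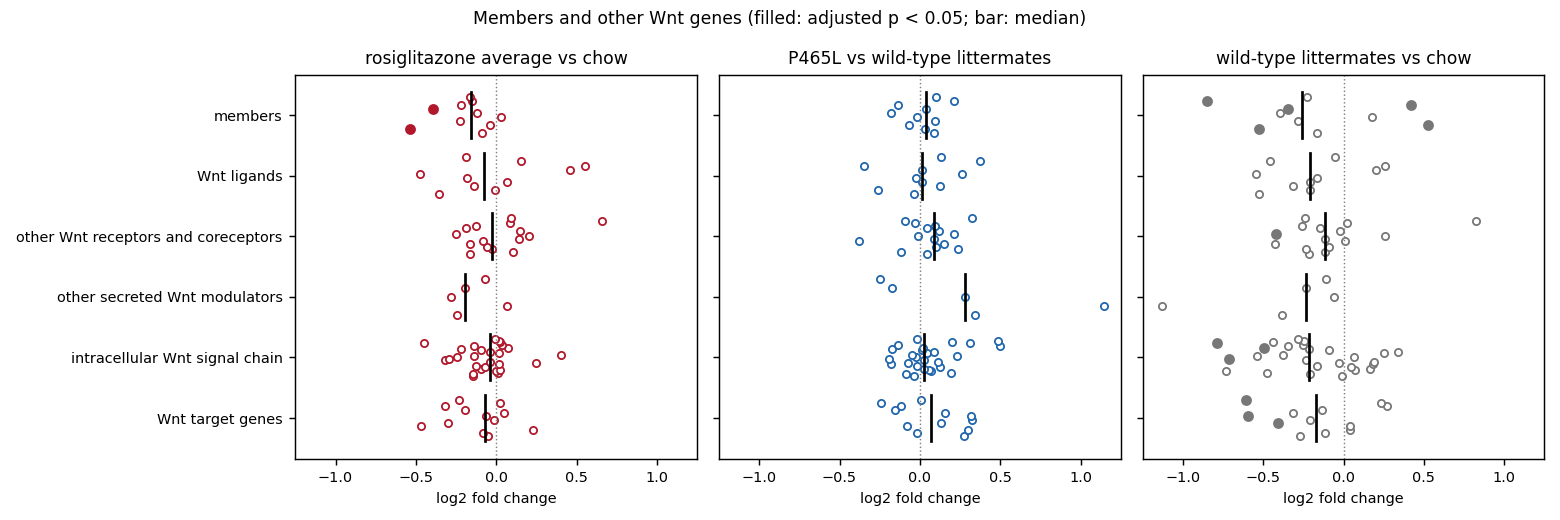
Log2 fold changes of the 10 genes (top row) and of the 69 tested genes of 5 Wnt lists for rosiglitazone over chow, P465L over its littermates, and littermates over chow; each point is a gene, filled where the adjusted p was under 0.05, and bars are medians. With rosiglitazone the filled points are Fzd2 and Sfrp4, in P465L aortas there are none, and in littermates against chow the 7 filled points of the lists all lie below 0.

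Levels of cell type markers differed in some of these comparisons, and their part in the results for Fzd2, Sfrp4 and the other genes was not tested. Adipocyte markers (11 of 14 tested) had a median log2 fold change of 0.49 with rosiglitazone, with Fabp4, itself a target of PPARγ, called higher (0.84, adjusted p = 0.0256). In P465L aortas their median was -0.59 with 0 called, and in littermates against chow it was 0.76 with Fabp4 and Agpat2 called higher. Their summed signal ran from 210507 to 434143 and from 217012 to 363462 in the 3 mg/kg/day groups after 2 and 14 days, from 266436 to 279278 and from 262712 to 322957 in the 10 mg/kg/day groups, and from 129869 to 210108 in chow, and it was 140193 to 291319 in P465L aortas and 238908 to 357121 in wild-type littermates. The P465L sums overlapped those of chow and also those of littermates. In P465L aortas against littermates the log2 fold changes of Fzd2 and Sfrp4 were 0.03 and 0.04, and their relation to the adipocyte markers was not tested.

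Endothelial markers (12 of 12 tested) had a median of -0.13 with rosiglitazone, with Pecam1 called lower (-0.57, adjusted p = 0.0209), and summed to 42215 to 58094 in the treated arrays and 53419 to 63868 in chow. Macrophage markers (12 of 12 tested) had a median of -0.16 with 0 called, and in littermates against chow -0.31, with C1qa (-0.51, adjusted p = 0.0232) and Ctss (-0.85, adjusted p = 0.00356) called lower. Fibroblast and adventitial markers had medians of 0.02 with rosiglitazone (0 of 15 called) and 0.12 in littermates against chow, with Dcn called higher (0.33, adjusted p = 0.0437). Smooth muscle markers had medians of 0.00 with rosiglitazone (0 of 12 called) and of 0.24 in littermates against chow (0 called), where their sums were 667577 to 677458 in littermates and 553127 to 615589 in chow. Skeletal muscle markers (11 tested) had a median of 1.91 in littermates against chow, with 11 above 0, of -1.28 in P465L aortas against littermates, with 11 below 0, and of -1.06 after 10 mg/kg daily for 14 days, with 11 below 0. None of these was called by limma, and their sums varied widely between arrays of 1 group, from 6201 to 64461 in P465L aortas, from 19716 to 102245 in littermates and from 4097 to 39679 in chow. Nerve markers had a median of 0.00 with rosiglitazone.

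The genes most like each called member over the 20 arrays were found by Pearson's r of log2 levels, as a description over arrays that share groups and scaling. They were Aktip (0.881), Pdlim4 (0.818) and Sin3a (0.816) for Fzd2, and Sin3a (0.84), Ciz1 (0.818) and Fam50a (0.811) for Sfrp4. For Wif1 they were Svil (0.93), Fat4 (0.92) and Hey2 (0.909), for Fzd4 Smim10l1 (0.884), Pik3r1 (0.869) and Pcmtd1 (0.865), and for Frzb Procr (0.914), Sptlc1 (0.9) and Fez2 (0.887). Fzd2 and Sfrp4 themselves had r = 0.77 over all 20 arrays. After the group means were taken out, the 45 pairs among the 10 genes ran from -0.61 (Fzd4 with Fzd7) to 0.69 (Sfrp1 with Sfrp2), with a median of 0.07.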

How the data were processed

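The authors deposited linear intensity values, 1 MAS5 signal for each probe set, per the submitters' processing notes. The MAS5 version and settings are not given in the sources used here. By the values, arrays were scaled to a common 2% trimmed mean of 1500. Gene names came from the platform annotation: 34945 probe sets had 1 symbol, 932 had several, 9160 had none and 64 were controls, and probe sets without exactly 1 symbol were left out.

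From these values, log2(signal + 72) was computed, 72 being the 20th percentile of all values. A gene took its brightest probe set and was tested if its mean reached the 50th percentile of all probe sets (log2 8.73, signal 354). Differences were fitted with limma 3.58.1 in R 4.3.3 (1 mean per group, 13 residual degrees of freedom, variance trend, 7.3 prior degrees of freedom), and tested on simulated data. Tables and figures were made with Python 3.11.15, pandas 2.3.3 and matplotlib 3.10.9. Arrays with the same replicate letter did not deviate together (median r 0.026 over 57 pairs), so no pairing was used. Alternatives were other offsets, scalings, filters, summaries of probe sets, variance models, array sets and leaving out each array, and, chosen after seeing the data, each probe set on its own.

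The members and the gene lists were chosen with earlier results of these data known. Named were all 10 members, every list gene called in a comparison, where a Wnt list had no call its gene with the smallest p-value with rosiglitazone and in P465L aortas, and the 3 genes most like each called member. The number of arrays limits the precision.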

Additional observations from a re-analysis of the deposited data

Results flagged for a closer look

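For 2 genes all 11 rosiglitazone arrays lay below the chow mean while all 3 P465L arrays lay above the mean of wild-type littermates. The share of all tested genes that meet this rule was not worked out, so the count is a description. For both genes the P465L arrays overlapped those of littermates, with log2 fold changes of 0.04 for Sfrp4 and 0.09 for Fzd7. For Sfrp4 the rosiglitazone effect minus the P465L effect was -0.43 on the log2 scale (unadjusted p = 0.00364, adjusted p = 0.239 by limma). For Fzd7 the difference was -0.31 (unadjusted p = 0.0266, adjusted p = 0.419 by limma). Neither difference passed adjustment over all tested genes.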

How the results depend on the processing

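With 3 arrays a group, 2 at 10 mg/kg daily for 14 days, the calls were sensitive to single arrays and to the model. Over the 11 other settings the log2 fold change of Fzd2 with rosiglitazone on average stayed between -0.62 and -0.40 and was called in all (adjusted p from 0.00488 to 0.0416 by limma). The Fzd2 call was kept in 12 of 14 fits without 1 array. It was not made by probe set 1418534_at alone (-0.22, adjusted p = 0.258 by limma), which was nearly as bright (mean log2 12.88 against 12.94). The log2 fold change of Sfrp4 stayed between -0.48 and -0.37 and was called in 8 of 11, but not with median centring, without the variance trend or with the arrays of the rosiglitazone experiment alone (adjusted p up to 0.0923). In littermates against chow, Wif1 and Fzd4 were called in 10 of 10 settings, Fzd2 in 9, Frzb in 8 and Sfrp4 in 4. Of the called values 1 changed sign, Fzd4 in littermates against chow, at -0.07 by probe set 1434756_at. The cause of these changes was not tested.

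Of the 10 members, 2 were called with rosiglitazone on average, and 1 under median centring, without the variance trend or with that experiment's arrays alone. At 10 mg/kg daily for 2 days 2 were called, 1 under median centring, the mean of probe sets or that experiment's arrays alone and 0 without the variance trend. At 10 mg/kg daily for 14 days 1 was called, 0 under median centring, no filter, the mean of probe sets or no variance trend, and 2 with array weights. In littermates against chow 5 were called, 2 under median centring and 3 with the mean of probe sets, while Sfrp2 gained the call with quantile normalization (adjusted p = 0.0435), array weights (0.0233) or without the third littermate array (0.0338). For the rosiglitazone effect minus the P465L effect 0 were called, and 1, Fzd2, with array weights (adjusted p = 0.0367 by limma). Leaving out 1 array in turn gave 0 to 2 members with rosiglitazone on average, 0 to 1 at 10 mg/kg daily for 2 days, 0 at 14 days and 2 to 4 in littermates against chow.

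The replicate block, with letters as pairs, left 2 members called with rosiglitazone on average (Fzd2 at -0.53, adjusted p = 0.0199 by limma) and 52 genes in all against 48, and in littermates against chow it left 4, ending the Sfrp4 call. Over settings, the count of all genes called ran from 17 to 266 with rosiglitazone on average (48 as reported), 13 to 612 at 10 mg/kg daily for 2 days (56), 0 to 257 at 14 days (30), 385 to 1036 in littermates against chow (720), 0 to 6 in P465L aortas (2), 3 to 88 for the difference of effects (12), 0 to 2 for dose (0) and 0 to 5 for time (0). Without 1 array these counts ran from 1 to 83, 0 to 18, 0 to 9, 279 to 620, 0 to 3 and 6 to 51, with 0 for dose and time. Median centring moved the median of all genes to -0.11 with rosiglitazone on average, against -0.02, and relative to it Fzd2 was at -0.51 and Sfrp4 at -0.37. At 10 mg/kg daily for 2 days it gave 2 genes higher and 38 lower, against 15 and 41 without it. Of 910 values without 1 array, 870 kept their side of the threshold, 39 lost the call and 1 gained it. Most of the 910 were not called with all arrays and had no call to lose. With rosiglitazone on average, Fzd2 kept the call in 12 of 14 fits and Sfrp4 in 8 of 14. At 10 mg/kg daily for 2 days Fzd2 kept it in 2 of 6 and Sfrp4 in 0 of 6. After 14 days at that dose Fzd2 kept it in 0 of 5. In littermates against chow Wif1 kept it in 6 of 6 and Fzd2 in 5 of 6. Fzd4, Frzb and Sfrp4 each kept it there in 1 of 6. In addition, 56 values that were not called changed sign.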
